A study of Mus musculus with 4 samples.

Results

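Kinesins, dyneins and tubulins make up the microtubule cytoskeleton of the cell and the motors that walk on it. The 64 genes described here were all protein-coding genes of the expression table whose symbols name a kinesin (Kif), a cytoplasmic dynein chain (Dync, Dynl), an α-, β- or γ-tubulin (Tuba, Tubb, Tubg) or a γ-tubulin complex protein (Tubgcp), together with the spindle proteins Aspm, Tpx2 and Prc1. They were taken by name from the 12701 genes listed, with 1 entry per symbol on a primary chromosome. By textbook role they fell into 11 mitotic kinesins, 3 spindle-associated proteins, 11 transport kinesins of the kinesin-1, kinesin-2 and kinesin-3 families, 7 other kinesins, 14 dynein chains, 12 tubulins and 5 γ-tubulin complex proteins. Kif1bp matched by name only, since it encodes a kinesin-binding protein with no motor domain.

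The libraries came from RNA sequencing of cultured mouse cells labelled as female germline stem cells (FGSCs). The cells had been infected with a lentivirus and selected with an antibiotic. Control cells carried a non-targeting short hairpin RNA (shNC, 2 libraries), and the knockdown cells carried a hairpin that targets the lncRNA Gm26917 (shGm26917, 2 libraries). The sources used here name neither the Gm26917 hairpin in these libraries nor separate cultures for the libraries of a group, and p-values therefore measure only how far these libraries spread. Levels are given as CPM, estimated reads of a gene scaled to the same library size in every library.

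Steps between low values put the libraries at about 12900000 to 17900000 reads. Gm26917 itself had 155 and 157 CPM in shNC against 136 and 104 CPM under shGm26917, and did not pass the test with limma (log2 fold change -0.39, adjusted p = 0.0696). Of 15 germline markers, 4 were listed (Ifitm3, Gfra1, Zbtb16 and Etv5). The other 11, among them Ddx4 and Dazl, were not among the genes listed, from which low genes had been left out. The germline name was therefore not borne out by these 11 markers and is taken from the sample labels. The summed level of the germline markers listed was 118 and 130 CPM in shNC against 83.0 and 83.3 CPM under shGm26917, and without Ifitm3, the only one of the 4 that was called (lower), it was 31.5 and 30.2 CPM against 30.1 and 30.7 CPM. Markers of other cell types were listed as well: 4 of 9 for mast cells (2248 and 2214 CPM against 2342 and 2380 CPM), 6 of 7 for fibroblasts (421 and 440 CPM against 386 and 373 CPM), 2 of 6 for macrophages (193 and 168 CPM against 170 and 165 CPM) and 1 of 6 for neurons, while 0 of 6 were listed for granulosa cells and 0 of 6 for motile ciliated cells. Of the mast cell markers Cpa3 was called higher and Gata2 and Ms4a2 lower, Kit was not called, and without Cpa3 the sum was lower under shGm26917 (1758 and 1673 CPM against 1608 and 1557 CPM). Among the fibroblast markers Thy1 was called lower (log2 fold change -0.78) and Col3a1 higher (0.44), and the others listed were not called. Of the macrophage markers Cd68 was called lower (-0.69) and Adgre1 was not called. The sums of the germline, mast cell and fibroblast lists did not overlap between the groups, that of the germline list through Ifitm3 alone. Such a split was common, since of all single genes 31.5% lay wholly above and 32.7% wholly below. The part of these lists in the results that follow was not tested. In bulk RNA, a change in the number of cells of a type or cell cycle stage and a change of RNA per cell cannot be told apart.

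Microtubules are polymers of α- and β-tubulin that grow from γ-tubulin ring complexes. Most kinesins walk towards their growing plus ends and cytoplasmic dynein towards their minus ends, and both carry vesicles, organelles and RNA between divisions. When a cell divides, a separate set of kinesins, many of them made only around mitosis, builds the bipolar spindle, moves the chromosomes and lays down the central spindle where the daughter cells are cut apart. Many of these mitotic genes carry in their promoters a cell cycle homology region (CHR) element, often downstream of CCAAT boxes. The CHR is bound by complexes built on the MuvB core, which hold the genes silent in resting cells and switch them on late in the cycle.

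Stretches around the start sites of mitotic genes are shown here because the mitotic genes were the class with the most calls. A RefSeq promoter window (build GRCm38.p6, 250 bases before to 50 bases after a start site) was matched by symbol for 49 of the 64 genes, and for 12 of the 14 mitotic kinesins and spindle-associated proteins. Each stretch below runs from 120 bases before the start site to 30 bases after it, 5′ to 3′ on the strand of the gene. Capitals mark the CHR element TTTGAA, the CCAAT box and the E2F sites TTTCCCGC and TTTGGCGC. Each was searched for on both strands, and reverse complements are in capitals too.

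The first 6 stretches belong to genes that were called higher in shGm26917, namely Aspm at chr1:139454653-139454802 (plus strand), Kif23 at chr9:61946770-61946919 (minus strand), Kif18b at chr11:102925095-102925244 (minus strand), Kif4 at chrX:100625945-100626094 (plus strand), Kif14 at chr1:136467728-136467877 (plus strand) and Kif2c at chr4:117178743-117178892 (minus strand).
Aspm: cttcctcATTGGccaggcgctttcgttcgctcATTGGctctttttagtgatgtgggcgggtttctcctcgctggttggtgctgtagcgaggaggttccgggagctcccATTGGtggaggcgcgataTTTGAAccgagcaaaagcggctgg
Kif23: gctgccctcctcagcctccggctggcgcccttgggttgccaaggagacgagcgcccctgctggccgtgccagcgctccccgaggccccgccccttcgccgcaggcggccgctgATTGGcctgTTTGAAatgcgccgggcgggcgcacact
Kif18b: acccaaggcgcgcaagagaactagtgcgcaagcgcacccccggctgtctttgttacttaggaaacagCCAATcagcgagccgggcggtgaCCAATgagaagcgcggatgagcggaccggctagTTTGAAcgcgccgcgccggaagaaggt
Kif4: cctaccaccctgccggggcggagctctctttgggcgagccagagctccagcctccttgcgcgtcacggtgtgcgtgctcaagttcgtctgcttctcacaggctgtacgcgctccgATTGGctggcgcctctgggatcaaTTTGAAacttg
Kif14: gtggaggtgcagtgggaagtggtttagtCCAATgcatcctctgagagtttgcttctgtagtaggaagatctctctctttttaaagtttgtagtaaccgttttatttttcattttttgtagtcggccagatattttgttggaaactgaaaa
Kif2c: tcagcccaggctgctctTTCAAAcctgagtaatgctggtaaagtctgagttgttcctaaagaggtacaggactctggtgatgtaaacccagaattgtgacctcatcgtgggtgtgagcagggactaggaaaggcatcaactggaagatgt

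In 4 of these 6 genes a CHR element lay just after the start site, beginning 6 bases past it in Aspm, 2 in Kif23, 3 in Kif18b and 19 in Kif4, with at least 1 CCAAT box upstream of it. Kif14 and Kif2c did not show this order. The CHR element of Kif14 began 228 bases before the start site, outside the stretch shown and upstream of its CCAAT box, and that of Kif2c 103 bases before it, with no CCAAT box.

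The next 5 belong to mitotic genes that were not called, namely Kif11 at chr19:37376262-37376411 (plus strand), Prc1 at chr7:80294331-80294480 (plus strand), Kif20b at chr19:34922238-34922387 (plus strand), Kif15 at chr9:122950961-122951110 (plus strand) and Kif18a at chr2:109280618-109280767 (plus strand).
Kif11: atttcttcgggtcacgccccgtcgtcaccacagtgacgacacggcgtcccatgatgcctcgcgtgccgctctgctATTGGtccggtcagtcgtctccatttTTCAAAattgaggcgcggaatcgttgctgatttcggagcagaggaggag
Prc1: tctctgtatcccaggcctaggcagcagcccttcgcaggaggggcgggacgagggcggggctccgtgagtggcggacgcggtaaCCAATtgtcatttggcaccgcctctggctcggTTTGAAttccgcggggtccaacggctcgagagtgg
Kif20b: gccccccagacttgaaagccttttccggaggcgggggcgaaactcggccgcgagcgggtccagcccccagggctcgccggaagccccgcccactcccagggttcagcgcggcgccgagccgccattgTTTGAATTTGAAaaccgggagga
Kif15: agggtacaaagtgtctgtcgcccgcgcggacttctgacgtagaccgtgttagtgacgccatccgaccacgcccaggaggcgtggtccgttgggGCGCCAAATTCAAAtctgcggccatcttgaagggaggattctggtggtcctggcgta
Kif18a: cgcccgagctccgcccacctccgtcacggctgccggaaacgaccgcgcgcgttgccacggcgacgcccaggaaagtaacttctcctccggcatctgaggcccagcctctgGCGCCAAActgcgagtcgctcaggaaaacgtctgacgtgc

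Kif11 and Prc1 had a CCAAT box upstream of a CHR element, as Aspm, Kif23, Kif18b and Kif4 did. So did Kif22, also not called, whose stretch is not shown. Its CCAAT box began 54 bases and its CHR element 17 bases before the start site. Kif20b had a pair of CHR elements back to back and no CCAAT box, in Kif15 an E2F site abutted the CHR element, and Kif18a had an E2F site and no CHR element.

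Within the whole windows, the CHR letters were present in 11 of 12 mitotic genes (91.7%), against 11.9% of the 9371 listed genes that had a window. Within 50 bases of the start site they were present in 9 of the 12, against 2.81% of all. CCAAT boxes were present in 8 of the 12 (66.7%), against 39.3% of all, and both motifs together in 8 (66.7%), against 5.09% of all. An E2F site was found in 2 of the 12, Kif15 and Kif18a, against 3.29% of all windows. The CHR letters were found in 0 of 9 transport kinesins, in 1 of 6 other kinesins (Kif26b), in 0 of 9 dynein chains and in 1 of 9 tubulins (Tubb4b). Among the mitotic genes they were in 6 of 6 that were called higher and in 5 of 6 that were not called, and within 50 bases of the start site in 4 of 6 and 5 of 6, so their presence did not separate these genes by call. The windows of Kif4, Kif14 and Kif2c lay 328, 1505 and 3867 bases from the start of the gene in GENCODE M21. Positions are given from the start site of the window, and a match is a description of letters, not of a bound site.

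**Figure D1:**
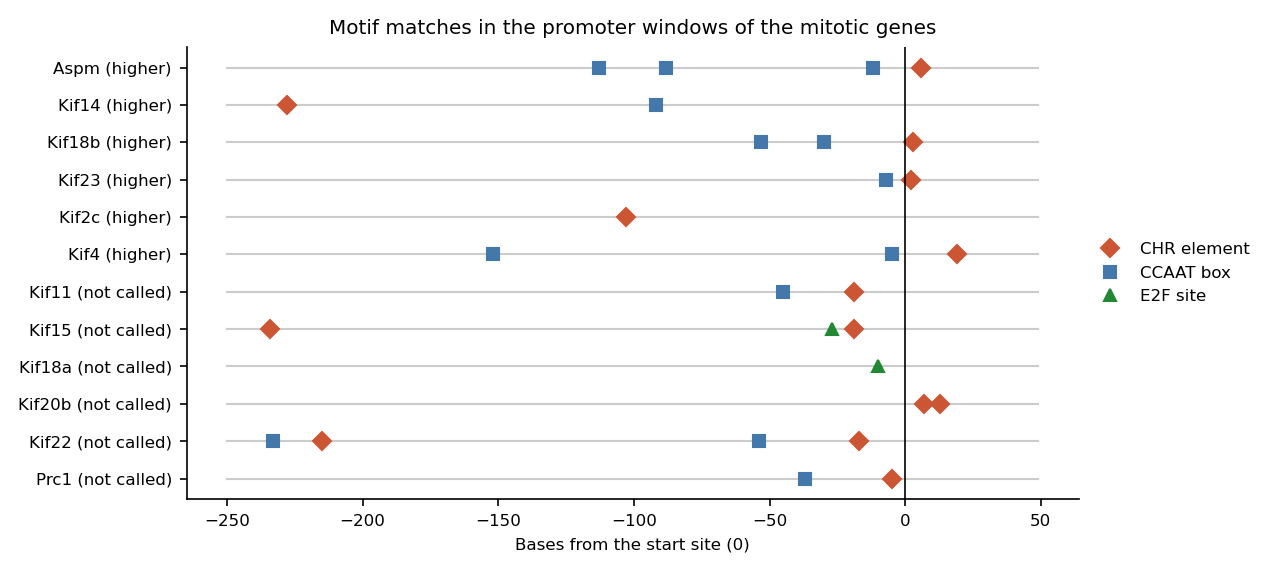
Matches to the CHR element (diamonds), the CCAAT box (squares) and the E2F site (triangles) in the promoter windows of 12 mitotic genes, by distance in bases from the start site at 0, with the call of each gene in brackets. The CHR element lay within 50 bases of the start in 9 of the 12 windows.

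shGm26917 was compared with shNC to see which motor and tubulin genes changed on knockdown. Over the 64 genes, 11 were called higher, 7 lower and 46 were not called at an adjusted p under 0.05 (limma on log2(CPM + 0.5), Benjamini-Hochberg over all genes). Over all 12701 genes 23.1% were called, 11.6% higher and 11.5% lower. The median log2 fold change was 0.07 over the 64 genes and -0.01 over all genes. The classes differed in their counts: 8 of the 14 mitotic kinesins and spindle-associated proteins were called higher and 0 lower, while of 11 transport kinesins 0 were called higher and 2 lower. The classes were set with earlier results of these data known. Kif2a, which also acts at spindle poles, was placed with the other kinesins. It was not called (log2 fold change -0.20), but both its shGm26917 libraries lay below both shNC libraries. Both shGm26917 libraries lay above both shNC libraries for 26 of the 64 genes and below them for 16, against 31.5% above and 32.7% below of all genes. Among the mitotic kinesins and spindle-associated proteins, 11 of 14 lay above and 0 below.

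**Figure D2:**
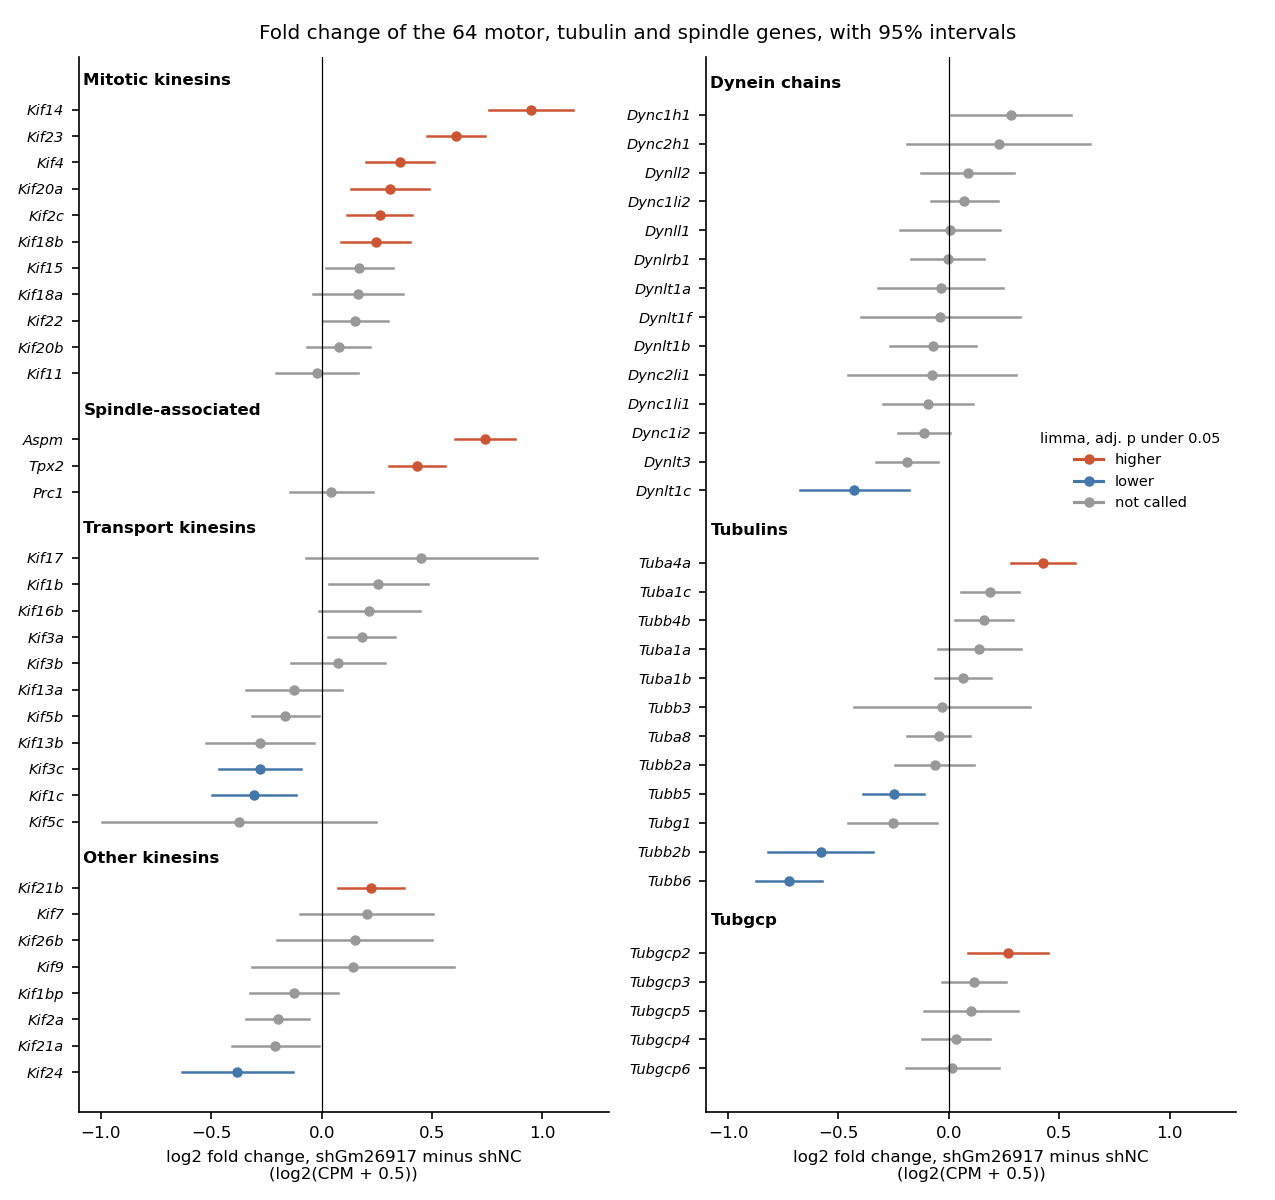
Log2 fold change, shGm26917 minus shNC, on the log2(CPM + 0.5) scale for all 64 genes by class, with 95% intervals from limma and colours for the call. Kif14 at 0.95 and Tubb6 at -0.72 were the outermost called genes on either side, and the dynein chains lay mostly across 0.

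Of the 11 mitotic kinesins 6 were called, all higher, against 11.6% called higher of all genes. Kif14, Kif23, Kif4 and Kif20a had the largest fold changes. Kif14, a kinesin-3 motor that acts in cytokinesis and sits at the midbody, had 17.7 and 15.8 CPM in shNC against 32.9 and 32.4 CPM under shGm26917. The groups were far apart, with a log2 fold change of 0.95 (0.76 to 1.14 as the 95% interval, adjusted p = 0.000756). Kif23, the motor subunit of centralspindlin, which bundles the central spindle, had 41.3 and 40.8 CPM in shNC against 63.6 and 62.0 CPM under shGm26917 (log2 fold change 0.61, 0.48 to 0.74, adjusted p = 0.000906). Kif4, a chromokinesin that also sets the length of the central spindle, had 49.3 and 47.6 CPM in shNC against 65.1 and 59.2 CPM under shGm26917 (0.36, 0.20 to 0.51, adjusted p = 0.00963). Kif20a, which brings the chromosomal passenger complex to the central spindle, had 58.0 and 50.4 CPM in shNC against 68.2 and 66.1 CPM under shGm26917 (0.31, 0.13 to 0.49, adjusted p = 0.0245). In each of these genes both shGm26917 libraries were above both shNC libraries. The calls of Kif4 and Kif20a were lost without shGm26917 replicate 1, at log2 fold changes of 0.29 and 0.29, while Kif14 and Kif23 kept theirs whichever library was left out. Over all genes fewer were called without an shGm26917 library and more without an shNC library. A call lost or gained in this way, here or in the genes below, need not rest on that library.

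A pair of motors that act on microtubule ends rose by less. Kif2c, a depolymerase that corrects faulty attachments at the kinetochore, had 32.1 and 31.0 CPM in shNC against 38.4 and 37.3 CPM under shGm26917 (log2 fold change 0.26, 0.12 to 0.41, adjusted p = 0.0229). Kif18b, a kinesin-8 that limits astral microtubules, had 33.3 and 30.6 CPM in shNC against 37.5 and 38.3 CPM under shGm26917 (0.24, 0.09 to 0.40, adjusted p = 0.0387). Both sets of libraries stood apart, but either call was lost without either shGm26917 library, though the folds changed little. Without shGm26917 replicates 1 and 2 in turn, Kif2c was at 0.24 and 0.28 and Kif18b at 0.26 and 0.23. The call of Kif18b was also lost without shNC replicate 2, at 0.19.

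The remaining 5 mitotic kinesins were not called. Kif15, which helps to keep the spindle bipolar, had 86.1 and 77.5 CPM in shNC against 91.5 and 92.3 CPM under shGm26917 (log2 fold change 0.17, adjusted p = 0.0998), and passed without shNC replicate 1 (0.0102). Kif18a, which damps chromosome movements at the metaphase plate, had 24.2 and 27.5 CPM in shNC against 27.6 and 30.4 CPM under shGm26917 (0.16, adjusted p = 0.218). Its groups were next to each other, with shNC replicate 2 and shGm26917 replicate 1 almost level. Kif22, a chromokinesin that pushes chromosome arms, had 39.9 and 37.8 CPM in shNC against 44.2 and 42.2 CPM under shGm26917 (0.15, adjusted p = 0.127). Kif20b, which acts late in cytokinesis, had 100.3 and 94.0 CPM in shNC against 105.7 and 99.2 CPM under shGm26917 (0.08, -0.07 to 0.22, adjusted p = 0.407), and its groups overlapped. Kif11, the kinesin-5 motor that slides the spindle poles apart, had 67.0 and 58.1 CPM in shNC against 63.5 and 59.5 CPM under shGm26917 (-0.02, -0.21 to 0.16, adjusted p = 0.866). The Kif11 groups overlapped entirely, and a second entry for Kif11 on a patch scaffold held the same 4 values, so its level is uncertain.

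Of the 3 spindle-associated proteins, 2 were called, both higher, against 11.6% called higher of all genes. Aspm, which holds microtubule minus ends at the spindle poles, had 77.3 and 72.2 CPM in shNC against 128 and 122 CPM under shGm26917 (log2 fold change 0.74, 0.60 to 0.88, adjusted p = 0.000577). Tpx2, which activates Aurora A kinase and nucleates spindle microtubules, had 152 and 147 CPM in shNC against 206 and 198 CPM under shGm26917 (0.43, 0.30 to 0.56, adjusted p = 0.00247). Both were clear of the shNC libraries and kept their calls whichever library was left out. Prc1, which crosslinks antiparallel microtubules in the central spindle and binds Kif4 and Kif14, had 93.7 and 81.8 CPM in shNC against 94.8 and 85.9 CPM under shGm26917. The Prc1 groups overlapped (0.04, -0.14 to 0.23, adjusted p = 0.727), in contrast to those of its motor partners Kif4 and Kif14.

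Per kb of exon, Tpx2 had the highest level of the 14 genes, at 32.0 CPM per kb in shNC and 43.2 in shGm26917. Kif14 was the lowest in shNC, at 1.61 CPM per kb. In shGm26917 it had 3.15 CPM per kb, and Kif18a was the lowest there, at 2.95. The ratio of Kif14 to Kif11, a pair chosen after their values were seen, was 0.264 and 0.271 in shNC and 0.519 and 0.545 in shGm26917. This ratio is taken within a library and library scaling cannot move it. Its size is still uncertain, because the level of Kif11 is.

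**Figure D3:**
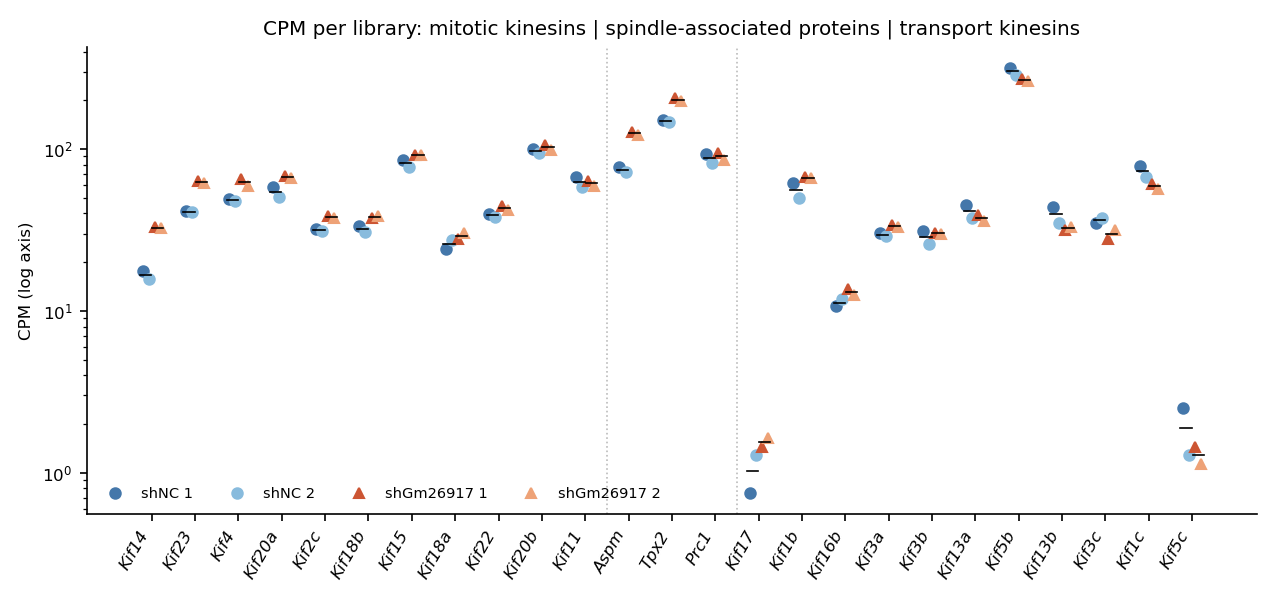
CPM on a log axis in each of the 4 libraries (circles shNC, triangles shGm26917, bars the group means) for the 11 mitotic kinesins, the 3 spindle-associated proteins and the 11 transport kinesins, in order of fold change within each class. The shGm26917 libraries lie above the shNC libraries from Kif14 to Kif22, while the transport kinesins go either way.

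Spindle genes outside the set were counted as well. Of 22 other spindle motors and regulators, all of them listed, 11 were called higher and 0 lower with limma, 15 had an unadjusted p under 0.05, and all 22 had a positive log2 fold change (median 0.25). Of all genes 11.6% were called higher, 37.1% had such a p and 49.1% had a positive log2 fold change. This list was chosen with earlier results of these data known, so its counts are a description and no independent support. Plk1, the mitotic polo kinase, had 24.5 and 26.1 CPM in shNC against 36.4 and 37.3 CPM under shGm26917 (0.54, adjusted p = 0.00242). Bora, which helps Aurora A to activate Plk1, had 22.8 and 25.4 CPM in shNC against 36.0 and 36.3 CPM under shGm26917 (0.58, adjusted p = 0.00261). Ckap2l, a spindle protein, had 39.7 and 39.8 CPM in shNC against 55.2 and 53.0 CPM under shGm26917 (0.44, adjusted p = 0.00281). In all 3 the shGm26917 libraries were above both controls. Racgap1, the partner of Kif23 in centralspindlin and named here for that reason, had 71.8 and 71.2 CPM in shNC against 94.8 and 91.6 CPM under shGm26917 (0.38, adjusted p = 0.0034).

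Among the transport kinesins, which carry cargo through the cytoplasm, 2 of 11 were called, both lower, against 11.5% called lower of all genes. The class had 5 positive and 6 negative log2 fold changes and a median of -0.13. With limma 6 of 11 had an unadjusted p under 0.05, against 37.1% of all genes. Kif1c, a kinesin-3 carrier of vesicles and RNA, had 78.2 and 67.5 CPM in shNC against 61.0 and 56.4 CPM under shGm26917 (log2 fold change -0.31, -0.50 to -0.12, adjusted p = 0.0333). Kif3c, a kinesin-2 subunit that pairs with Kif3a, had 35.2 and 37.3 CPM in shNC against 27.9 and 31.6 CPM under shGm26917 (-0.28, -0.47 to -0.09, adjusted p = 0.0413). Both shGm26917 libraries lay below both shNC libraries in either gene, yet the call of Kif1c was lost without shNC replicate 1 or shGm26917 replicate 2 (adjusted p = 0.0547 and 0.128), and that of Kif3c without shNC replicate 2 or shGm26917 replicate 1 (0.0800 and 0.258).

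Kif5b, the ubiquitous kinesin-1 heavy chain, was the most abundant transport kinesin in every library, with 45.8% to 48.1% of the summed level per kb of exon of the class. It had 316 and 287 CPM in shNC against 273 and 265 CPM under shGm26917, lower in both libraries but not called (log2 fold change -0.16, -0.32 to -0.01, adjusted p = 0.112), and it passed without shNC replicate 2 (0.0102). The other 8 transport kinesins were not called and had log2 fold changes from -0.38 (Kif5c) to 0.45 (Kif17), the pair with the lowest levels of the class at under 3 CPM in every library. Close relatives fell on opposite sides of 0. Kif1b, at 61.8 and 49.8 CPM in shNC against 66.9 and 65.8 CPM under shGm26917, had a log2 fold change of 0.26 (adjusted p = 0.0965) beside -0.31 for Kif1c. Kif3a, the common subunit of the kinesin-2 motors, had 30.3 and 28.8 CPM in shNC against 34.1 and 33.1 CPM under shGm26917 (0.18, adjusted p = 0.0883). Kif1b passed without shNC replicate 1 (0.00155), and without shNC replicate 2 Kif17 passed as higher (0.0426) and Kif13a (0.0345), Kif13b (0.00264) and Kif5c (0.0296) as lower.

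As a ratio within a library, Kif1b to Kif1c was 0.790 and 0.738 in shNC and 1.10 and 1.17 in shGm26917, and Kif3a to Kif3c was 0.863 and 0.774 in shNC and 1.22 and 1.05 in shGm26917. These pairs were chosen after their values were seen, and their ratios are a description with no test. Of 11 light chains, adaptors and cargo subunits of these motors, 10 were listed. Against 11.6% called higher and 11.5% lower of all genes, 0 of them were called higher and 1 lower. That was Trak1, which links kinesin-1 and dynein to mitochondria, at 36.5 and 36.2 CPM in shNC against 29.3 and 27.9 CPM under shGm26917 (log2 fold change -0.34, adjusted p = 0.0102).

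Set against each other, the summed CPM of the 11 mitotic kinesins was 549 and 511 in shNC and 638 and 619 in shGm26917, and divided by that of the 11 transport kinesins it gave 0.838 and 0.876 in shNC and 1.10 and 1.09 in shGm26917. The ratio was higher in both knockdown libraries than in both control libraries, with a fold of 1.28 between the group means. Whether it lay above or below 1 depended on the members and the scale. Without the highest member of each class it was 1.32 and 1.41 in shNC and 1.73 and 1.72 in shGm26917 (fold 1.27), with the other kinesins added to the transport kinesins 0.574 and 0.595 against 0.723 and 0.724 (fold 1.24), and per kb of exon, a scale chosen after seeing the data, 1.05 and 1.09 against 1.37 and 1.36. The mitotic sum leaves out Kif2a, which had 103 and 95.3 CPM in shNC against 87.9 and 84.7 CPM under shGm26917. A ratio with Kif2a among the mitotic kinesins was not computed. No test was run on these ratios.

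**Figure D4:**
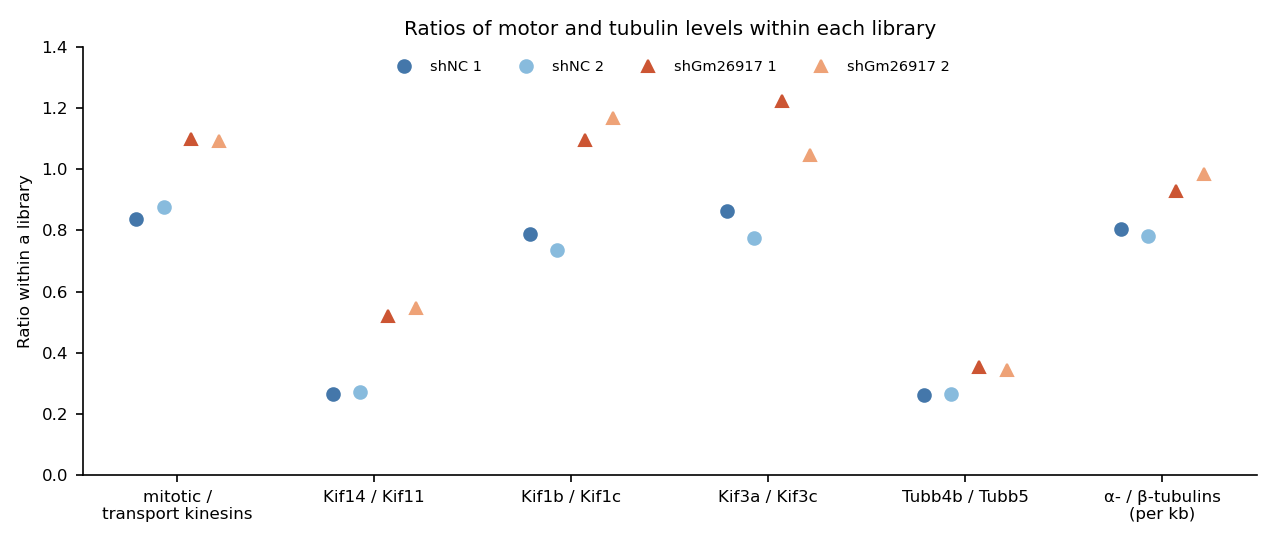
Ratios of summed or single CPM within each of the 4 libraries (circles shNC, triangles shGm26917), with the α- to β-tubulin ratio per kb of exon. The 6 were picked as ratios in which the shGm26917 libraries lie above the shNC libraries, while Tubb6 to Tubb5, Tubb2b to Tubb2a and Dynlt1c to Dynlt1b, not shown, lie below, at folds of 0.715, 0.687 and 0.774. The mitotic to transport ratio goes from 0.838 and 0.876 to 1.10 and 1.09. The level of Kif11 is uncertain, and with it the size of the Kif14 to Kif11 ratio.

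Of the 7 other kinesins, 1 was called higher and 1 lower, against 11.6% higher and 11.5% lower of all genes. Kif21b, a kinesin-4 motor that slows microtubule growth and is known from neurons and lymphocytes, was the most abundant of them, with 154 and 141 CPM in shNC against 178 and 167 CPM under shGm26917 (log2 fold change 0.22, 0.07 to 0.37, adjusted p = 0.0439). Its relative Kif21a was not called at -0.21 (adjusted p = 0.114), and the ratio of Kif21b to Kif21a averaged 9.91 in shNC and 13.5 in shGm26917. Kif24, a centriolar depolymerase that holds back cilium assembly, had 16.8 and 14.1 CPM in shNC against 11.3 and 12.2 CPM under shGm26917 (-0.38, -0.63 to -0.13, adjusted p = 0.0398). The Kif21b groups did not overlap and neither did those of Kif24. The call of Kif21b was lost without shNC replicate 2 (adjusted p = 0.0589) or either shGm26917 library (0.242 and 0.0766), and that of Kif24 without shNC replicate 1 (0.0964) or either shGm26917 library (0.146 and 0.0559). Kif2a, a depolymerase related to Kif2c that acts at spindle poles and in neurons, was not called, with a log2 fold change of -0.20 (adjusted p = 0.0514) where Kif2c was at 0.26, and passed with a filter of 5 CPM (0.0469) and without shNC replicate 2 (0.00932). Kif1bp had 22.0 and 19.6 CPM in shNC against 18.5 and 19.6 CPM under shGm26917 (-0.13, adjusted p = 0.333).

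Of 14 dynein chains, 0 were called higher and 1 lower with limma, against 11.6% higher and 11.5% lower of all genes. An unadjusted p under 0.05 was found in 3 (21.4%, against 37.1% of all genes), and in 10 the groups overlapped (71.4%, against 35.8% of all genes). The Dynlt1 copies among the chains share much of their sequence, so they are not fully separate members of these counts. Dync1h1, the heavy chain that holds the motor of cytoplasmic dynein 1, had 549 and 433 CPM in shNC against 623 and 563 CPM under shGm26917. The shNC libraries lay further apart than the group means did (log2 fold change 0.28, 0.01 to 0.55, adjusted p = 0.124), and the gene passed without shNC replicate 1 (0.00362). Dync2h1, the heavy chain of the dynein 2 motor of cilia, had 19.3 and 13.3 CPM in shNC against 19.9 and 17.8 CPM under shGm26917 (0.23, -0.19 to 0.64, adjusted p = 0.388), with groups that overlapped. Without shNC replicate 1 it passed at 0.49 (adjusted p = 0.00807), and without shNC replicate 2 it was at -0.04 (0.821), so its sign rested on shNC replicate 2.

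Among 8 light chains, Dynlt3 had the highest mean CPM, with 79.1 and 75.3 CPM in shNC against 65.6 and 69.8 CPM under shGm26917 (log2 fold change -0.19, adjusted p = 0.0587), and passed without shNC replicate 2 (0.0260). Dynlt1c, 1 of 4 listed copies of the Tctex-type light chain Dynlt1, had 16.1 and 19.2 CPM in shNC against 12.4 and 13.4 CPM under shGm26917 (-0.43, -0.68 to -0.18, adjusted p = 0.0256). The Dynlt1c call was lost without shNC replicate 2 or shGm26917 replicate 1 (adjusted p = 0.0515 and 0.0836). Of the 50-base words in Dynlt1c transcripts, 84.4% also occur in transcripts of other genes, 77.7% in those of Dynlt1f, so reads could be split between the copies and its value is uncertain. The copies Dynlt1a, Dynlt1b and Dynlt1f had log2 fold changes of -0.04, -0.07 and -0.04, with groups that overlapped. Elsewhere among the chains, Dynll2 passed as higher without shNC replicate 1 (0.0299) and Dync1li1 as lower without shNC replicate 2 (0.0326). Of 18 dynactin subunits and dynein regulators, 17 were listed. Of these 2 were called higher and 1 lower, against 11.6% higher and 11.5% lower of all genes. Nde1, a dynein regulator that acts in mitosis and neurogenesis, was higher by 0.42 (adjusted p = 0.00421) and Bicd1, a cargo adaptor, by 0.43 (0.00476), while Dctn4, a dynactin subunit, fell by 0.21 (0.0267).

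The β-tubulins were the class with the most genes called lower, 3 of 6, and 0 were called higher. Of all genes 11.5% were called lower and 11.6% higher. Tubb6, a minor β-tubulin isotype, had 40.4 and 42.0 CPM in shNC against 24.9 and 24.6 CPM under shGm26917 (log2 fold change -0.72, -0.87 to -0.57, adjusted p = 0.000843). Tubb2b, an isotype known from the developing brain, had 23.3 and 19.4 CPM in shNC against 14.2 and 13.9 CPM under shGm26917 (-0.58, -0.82 to -0.34, adjusted p = 0.00752). Both fell clear of the controls and kept their calls whichever library was left out. Tubb5, the main β-tubulin of these cells, had 551 and 533 CPM in shNC against 463 and 448 CPM under shGm26917 (-0.25, -0.39 to -0.11, adjusted p = 0.0229). Its groups did not overlap. The call was lost without either shGm26917 library, at log2 fold changes of -0.27 without replicate 1 and -0.23 without replicate 2.

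The other β-tubulins were not called. Tubb4b, at 144 and 141 CPM in shNC against 164 and 155 CPM under shGm26917, was above the controls in both libraries (log2 fold change 0.16, adjusted p = 0.0807). Tubb2a (-0.06) and Tubb3 (-0.03, under 3 CPM in every library) overlapped. Tubb2b shares 36.9% of its 50-base words with other genes, 31.3% with Tubb2a, while the ratio of Tubb2b to Tubb2a was 1.11 and 0.865 in shNC and 0.696 and 0.659 in shGm26917.

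Of the 5 α-tubulins 1 was called higher and 0 lower, against 11.6% higher and 11.5% lower of all genes. Tuba4a, an isotype whose coded tail lacks a final tyrosine, had 55.0 and 51.5 CPM in shNC against 69.7 and 73.7 CPM under shGm26917 (log2 fold change 0.43, 0.28 to 0.57, adjusted p = 0.00397), and kept its call whichever library was left out. Tuba1b, the main α-tubulin, had 231 and 225 CPM in shNC against 237 and 240 CPM under shGm26917. Its groups did not overlap, but the difference was small and not called (0.06, -0.06 to 0.19, adjusted p = 0.427). Tuba1c (0.19, adjusted p = 0.0507) and Tuba1a (0.14, adjusted p = 0.258) were above the controls in both libraries and not called, and Tuba8 (-0.05) was just below them. Tuba1c passed with median-ratio scaling (0.0464), upper-quartile scaling (0.0362), a filter of 5 CPM (0.0458) and without shNC replicate 1 (0.0419), and Tuba1a without shNC replicate 1 (0.0115). From 52.7% to 72.9% of the 50-base words of Tuba1a, Tuba1b and Tuba1c occur in other genes, mostly in each other, so their separate levels are uncertain.

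The shares of the isotypes differed most among the β-tubulins. Per kb of exon, Tubb5 made up 60.2% and 59.6% of the summed β-tubulin level in shNC and 56.1% and 56.4% in shGm26917. Tubb4b, of whose 50-base words 37.8% occur in other genes (32.4% in the pseudogene Tubb4b-ps1), made up 25.0% and 25.2% in shNC and 31.7% and 31.0% in shGm26917, and Tubb6 6.01% and 6.42% in shNC and 4.12% and 4.23% in shGm26917. For each of these 3 isotypes the shares did not overlap between groups. Among the α-tubulins, Tuba4a went from 6.71% and 6.61% to 8.17% and 8.45%, while Tuba1b held 54.3% to 57.1% in all 4 libraries. The ratio of α- to β-tubulin, summed per kb, was 0.804 and 0.783 in shNC and 0.930 and 0.986 in shGm26917. These shares and ratios are descriptions with no test.

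**Figure D5:**
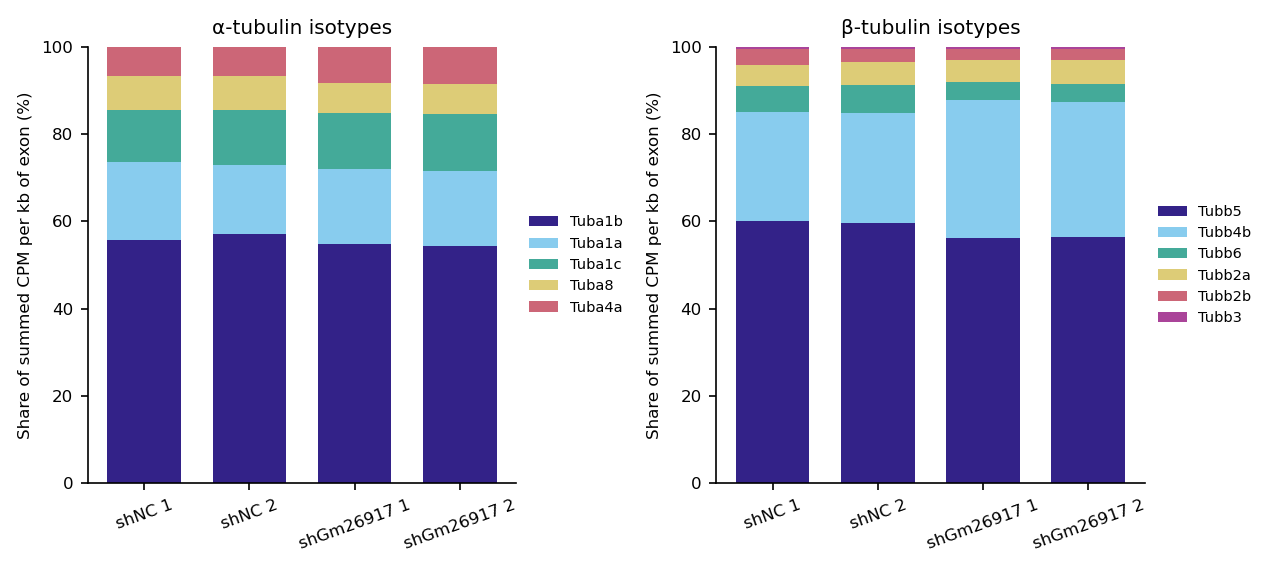
Share of each isotype in the summed CPM per kb of exon of the α-tubulins and of the β-tubulins, in percent, in each of the 4 libraries. Tubb4b takes 25.0% and 25.2% of the β-tubulin level in shNC and 31.7% and 31.0% in shGm26917, and Tuba1b stays the main α-tubulin in every library.

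Tubg1, the γ-tubulin that nucleates microtubules, had 20.03 and 22.2 CPM in shNC against 18.2 and 17.0 CPM under shGm26917. Both shGm26917 libraries were below the controls, but it was not called (log2 fold change -0.25, -0.45 to -0.06, adjusted p = 0.0692), and it passed without shNC replicate 1 (0.0266). Of the 5 γ-tubulin complex proteins 1 was called higher and 0 lower, against 11.6% higher and 11.5% lower of all genes. Tubgcp2, a core subunit of the γ-tubulin small complex, had 26.8 and 24.0 CPM in shNC against 31.2 and 30.1 CPM under shGm26917 (0.27, 0.09 to 0.45, adjusted p = 0.0436), and lost its call without shNC replicate 2 (0.0901) or either shGm26917 library (0.187 and 0.109). Tubgcp3, its partner in that complex and the most abundant of the 5 in CPM, had 35.8 and 37.3 CPM in shNC against 40.3 and 38.8 CPM under shGm26917 (0.11, adjusted p = 0.233). Tubgcp4, Tubgcp5 and Tubgcp6 were between 0.02 and 0.10, with groups that overlapped.

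Of 15 ring partners and augmin subunits, all listed, 2 were called higher and 1 lower, against 11.6% higher and 11.5% lower of all genes. Cep192, which recruits γ-tubulin to the mitotic centrosome, was higher by 0.29 (adjusted p = 0.00764) and Akap9, a scaffold at the Golgi and centrosome, by 0.31 (0.0215), while the augmin subunit Haus3 fell by 0.34 (0.0107). Of 20 tubulin folding and microtubule dynamics genes, 19 were listed, 2 were called higher and 0 lower, and 5 had an unadjusted p under 0.05 in either direction (26.3%), below the 37.1% of all genes. Mapre2, a plus-end binding protein, had 20.2 and 21.0 CPM in shNC against 33.9 and 33.6 CPM under shGm26917 (log2 fold change 0.70, adjusted p = 0.00103). Vash1, an enzyme that removes the final tyrosine of α-tubulin, had 8.16 and 5.76 CPM in shNC against 11.0 and 9.83 CPM under shGm26917 (0.56, adjusted p = 0.0413). In both genes the groups did not overlap.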

How the data were processed

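RNA was sequenced from shNC and shGm26917 FGSCs, with 2 libraries per group taken from the labels. Per the submitters' processing notes the tools were RSEM 1.2.28, Bowtie2 2.1.0 and edgeR, on build mm10. CPM of 12701 genes in each library were deposited by the authors as 1 table. The deposited table also holds 4 columns of the authors' own comparison, namely a log2 fold change, a linear fold (ratio), a p-value and its adjusted p-value, which were not used. The lowest second-highest CPM of any gene was 1.003, so low genes had been left out of the deposited table. Use of strand in counting is not stated in these sources, and overlapping antisense genes cannot be told apart.

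All genes were fitted on the log2(CPM + 0.5) scale with limma 3.58.1 (R 4.3.3), shGm26917 minus shNC, with a variance trend and robust moderation, two-sided, and Benjamini-Hochberg adjustment. Genes were called at an adjusted p under 0.05. On this scale the change of low genes is understated. Intervals are 95%. The fit was also tried on data simulated with equal library sizes and few changed genes. That setting is unlike these libraries and gives no check of the calls made here.

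Depth was taken from steps in values under 2 CPM, of which 33.6% to 67.8% lay within 0.02 of a whole multiple, so library sizes are approximate. Exon lengths (union of exons) and 50-base words came from GENCODE M21, which matched all 64 genes, and promoters from RefSeq, with the window nearest to the start of each gene. The members and lists were chosen with earlier results of these data known. Values per library are given for all mitotic kinesins, Aspm, Tpx2 and Prc1, for every other called member and for the member with the highest mean CPM of each class, and from each further list the called genes with the 3 smallest p are named. Kif1bp was left out of the list of cargo subunits because it is a member. Racgap1, Kif1b, Kif3a and Tubb4b were given their values after these were seen. Protein identity between isotypes was not analysed here.

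The alternatives were pseudocounts of 0.1 and 1, scaling by the median ratio or the upper quartile, a filter of 5 CPM in at least 2 libraries, no trend and robust moderation, the replicate number as a block, and each library left out in turn.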

Additional observations from a re-analysis of the deposited data

How the results depend on the processing

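Of 18 called genes, 7 kept their call under all 11 alternatives (Kif14, Kif23, Aspm, Tpx2, Tuba4a, Tubb2b and Tubb6) and 11 lost it under at least 1. Pseudocounts changed no call among the 64 genes. Both scalings added Tuba1c, and the stricter filter added Tuba1c and Kif2a. Without trend and robust moderation 1847 genes were called in place of 2930, and 4 in place of 8 mitotic genes, 0 transport kinesins, 0 dynein chains and 0 γ-tubulin complex proteins. The 2 replicate numbers did not pair the samples by the labels, and same-numbered libraries deviated together with a correlation of 0.11. With the replicate number as a block, 3982 genes were called over all, 5 transport kinesins (1 of them higher), 3 dynein chains and 7 tubulins. Leaving out 1 library at a time gave 1584 to 3505 called genes over all, 4 to 9 mitotic genes, 1 to 6 transport kinesins, of which 0 to 1 higher, 0 to 4 dynein chains, 3 to 7 tubulins, 0 to 1 γ-tubulin complex proteins, and a fold of the mitotic to transport ratio of 1.25 to 1.31; with the other kinesins in the ratio it was 1.24. In the same way Kif11, not called, ranged from -0.13 without shNC replicate 2 to 0.080 without shNC replicate 1 (0.024 without shGm26917 replicate 2), Prc1 from -0.053 without shNC replicate 2 to 0.14 without shNC replicate 1 (-0.026 without shGm26917 replicate 1), and Dync2h1 from -0.036 without shNC replicate 2 to 0.49 without shNC replicate 1. The cause of these changes was not tested. With 2 libraries per group and fewer than 3 CPM, as for Kif5c, Kif17 and Tubb3, intervals were wide.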
